A study of Mus musculus with 17 samples.

Results

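Glycolysis and hypoxia response genes were followed in eosinophils sorted from the marrow and the esophagus of IL-13 transgenic mice. The 40 listed genes cover glucose and monocarboxylate transport, the glycolytic enzymes, the enzymes that set the fate of pyruvate, and the genes that sense or answer low oxygen. They were taken by gene symbol from the value table, and probe sets that named 1 gene were averaged. A value was available for 35 of the 40 genes, among 22180 genes in all. Gpi1 and Eno1 had no probe set under their symbols, and Aldoa, Bnip3l and Ankrd37 were named only by probe sets shared with other genes, so these 5 genes are not analysed here.

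All mice carried the CC10-IL13 transgene, in which the CC10 promoter, active in club cells of the airway, drives IL-13 once doxycycline (Dox) is given. Mice of both sexes aged 6 to 8 weeks either lacked Pirb (CC10-IL13Tg/Pirb-/-, called knockout) or were littermates with intact Pirb (CC10-IL13Tg/Pirb+/+, called wildtype). Pirb encodes an inhibitory receptor of myeloid cells. Dox was given in the food for 2 weeks or not at all. Cells carrying CD45, Siglec-F and CCR3 were sorted and their RNA was hybridised to 17 arrays. Marrow without Dox had 2 wildtype and 3 knockout arrays, marrow with Dox had 3 of each genotype, and the esophagus with Dox had 3 of each. No label says that replicates came from separate animals, so each p-value reflects the spread between these samples alone, which may be technical.

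Glycolysis splits glucose into pyruvate, which is either reduced to lactate and exported or passed to the mitochondria. In low oxygen the prolyl hydroxylases encoded by the Egln genes lose activity, and the alpha subunits of the hypoxia-inducible factors (HIF), encoded by Hif1a and Epas1, accumulate and switch on glucose transporters, glycolytic enzymes and survival genes. Granulocytes rely heavily on glycolysis, and inflamed mucosa is often short of oxygen. HIF binds a short element with the core ACGTG or GCGTG in the promoters and enhancers of its targets.

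Promoter stretches are shown for 5 genes on which the tissue comparison turns, 3 of them higher in the esophagus (Slc2a1, Slc16a3, Hif1a) and 2 lower (Hk3, Tpi1). Each is the 250 bases before the RefSeq transcription start, written 5′ to 3′ on the gene's strand, with the HIF core ACGTG or GCGTG, read on either strand, in capitals. On the GRCm38.p6 assembly they lie at chr4:119108495-119108744 on the plus strand (Slc2a1), chr11:120948817-120949066 on the plus strand (Slc16a3), chr12:73907617-73907866 on the plus strand (Hif1a), chr13:55021386-55021635 on the minus strand (Hk3) and chr6:124814159-124814408 on the minus strand (Tpi1).
Slc2a1: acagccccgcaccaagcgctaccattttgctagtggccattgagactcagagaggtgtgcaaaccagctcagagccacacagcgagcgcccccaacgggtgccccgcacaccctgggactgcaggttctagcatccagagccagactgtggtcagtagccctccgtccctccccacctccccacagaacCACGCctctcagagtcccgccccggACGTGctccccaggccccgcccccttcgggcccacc
Slc16a3: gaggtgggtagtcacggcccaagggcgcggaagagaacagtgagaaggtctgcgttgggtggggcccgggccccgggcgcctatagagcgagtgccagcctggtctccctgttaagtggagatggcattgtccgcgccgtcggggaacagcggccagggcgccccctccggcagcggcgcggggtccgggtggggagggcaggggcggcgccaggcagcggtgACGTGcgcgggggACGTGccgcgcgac
Hif1a: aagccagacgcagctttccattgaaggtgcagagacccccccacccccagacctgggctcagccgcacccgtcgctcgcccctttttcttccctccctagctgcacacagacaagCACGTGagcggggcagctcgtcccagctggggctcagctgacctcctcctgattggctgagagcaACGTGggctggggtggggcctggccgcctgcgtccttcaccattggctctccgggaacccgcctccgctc
Hk3: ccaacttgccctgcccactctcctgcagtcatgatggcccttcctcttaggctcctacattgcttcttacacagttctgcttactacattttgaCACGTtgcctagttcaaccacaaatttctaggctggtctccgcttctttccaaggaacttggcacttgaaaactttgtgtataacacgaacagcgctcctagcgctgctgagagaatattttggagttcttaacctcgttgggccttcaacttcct
Tpi1: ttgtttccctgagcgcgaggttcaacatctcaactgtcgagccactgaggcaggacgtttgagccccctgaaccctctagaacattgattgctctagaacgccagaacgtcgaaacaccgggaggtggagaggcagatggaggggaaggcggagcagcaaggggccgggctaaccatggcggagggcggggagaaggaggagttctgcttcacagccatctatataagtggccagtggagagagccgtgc

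The Slc2a1 stretch held the core at 2 places, at positions -61 and -36 counted from the start, and that of Slc16a3 at 2 places, -27 and -14. Hif1a had 3 matches, of which 2 overlap in the palindrome CACGTG. Hk3 had 1 match, at -156, and Tpi1 had none. In RefSeq windows from 250 bases before to 50 after the start, 33 of the 36 listed genes with a window (91.7%) held the core, against 12628 of 27025 genes (46.7%). It was present for 7 of 7 genes that were higher in the esophagus, 6 of 7 that were lower and 17 of 18 that did not pass the test (94.4%). The core was thus present in nearly all listed genes whichever way they differed, and many listed genes are textbook HIF targets. A match is a description of these letters and was not tested as a binding site. No window was in the table for Slc2a3, Epas1, Bnip3l and Ndrg1.

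Each value is on a log2 scale centred per probe set. For nearly all probe sets 0 lies midway between a pair of arrays next to each other in rank. Values thus compare arrays and not genes and give no absolute level. The SD over all genes was 0.231 to 0.284 on 10 of the marrow arrays, and 0.511 to 0.611 on the esophageal ones. The remaining marrow array, knockout replicate 3 without Dox, had an SD of 0.802, and its correlation across genes averaged -0.0268 with its group mates but 0.380 with wildtype esophagus. Its value of Ptprc, which encodes the gate antigen CD45, was -4.50, while the highest array of that group stood at -0.05. Of the 35 genes, 14 (40%) were lower on this array than on all other marrow arrays and 10 (28.6%) were higher, while over all genes 18.5% were lower and 53.8% higher. It enters the comparisons with Dox only through the shared spread. The Pirb difference between genotypes did not pass the test, at -0.28 in the esophagus (adjusted p = 0.707, limma) and -0.15 in marrow with Dox, and it is not known here whether its probes lie in the deleted part. Siglecf, a gate gene, exceeded its marrow value in the esophagus by 0.73 ± 0.11 (SE, adjusted p = 4.72e-04), and Ccr3 differed by 0.83 ± 0.39 (adjusted p = 0.121).

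**Figure D1:**
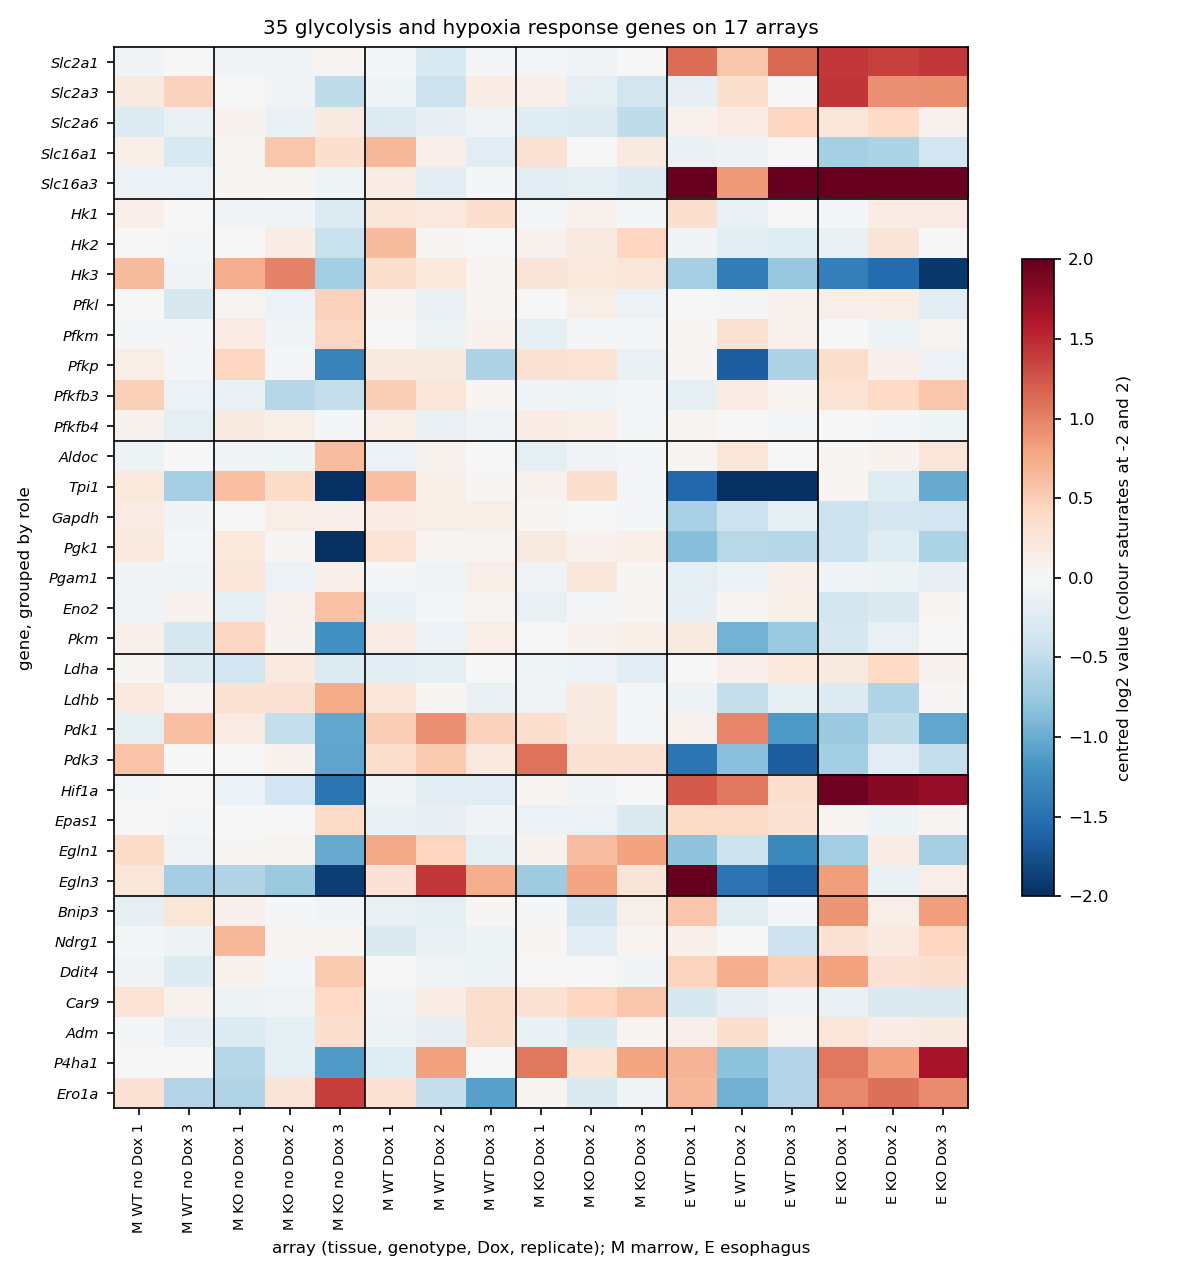
Centred log2 values of the 35 genes (grouped by role from top to bottom: transport, first steps, lower glycolysis, pyruvate fate, hypoxia sensing, other hypoxia response) on each of the 17 arrays, with M for marrow, E for esophagus, WT for wildtype and KO for knockout. Slc2a1, Slc16a3 and Hif1a are above 0 on all 6 esophageal arrays, Hk3 and Pdk3 are below 0 on all 6, and knockout marrow without Dox replicate 3 departs from the other marrow arrays.

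The first comparison asks how the genes differed between tissues in mice given Dox. Averaged over the genotypes, 9 genes were higher in esophageal than in marrow eosinophils: Slc2a1, Slc2a3, Slc2a6, Slc16a3, Ldha, Hif1a, Epas1, Bnip3 and Ddit4. Another 7 were lower: Slc16a1, Hk3, Tpi1, Gapdh, Pdk3, Egln1 and Car9. The listed genes therefore did not move as a block: importers of glucose, the lactate exporter and HIF subunits were higher. Of the glycolytic steps, only Hk3 (1 of 8 measured genes of the first steps) and Tpi1 and Gapdh (2 of 7 of lower glycolysis) were lower. Of all genes 12.2% were lower. In all, 16 of 35 genes (45.7%) passed an adjusted p of 0.05 in limma (Benjamini-Hochberg over all genes), beside 29.9% of all 22180 genes. The median difference of the 35 genes was -0.04, and that of all genes was 0.10. All 3 arrays of a group enter each value, and errors of differences are standard errors of the model.

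Within wildtype 11 genes passed (31.4%, 6 higher and 5 lower), against 15.2% of all genes (8.11% higher and 7.06% lower). Within knockout 9 genes passed (25.7%, 5 higher and 4 lower), against 10.5% (4.5% higher and 6.04% lower). The arrays of the tissues did not overlap for 15 genes in wildtype (46.1% of all genes), for 21 in knockout (44%) and for 11 with the genotypes together (19.1%). Slc2a1, Slc2a6, Slc16a3, Hk3, Gapdh and Hif1a passed in both. Tpi1, Pdk3, Epas1, Egln1 and Ddit4 passed in wildtype alone and Slc2a3, Slc16a1 and Car9 in knockout alone, but the test of the difference between genotypes was passed by none of the 35 genes, as described further on. The sign of the difference was the same in both genotypes for 29 of 35 genes (82.9%), as for 81.6% of all genes. Without the outlying array the counts were 13 in wildtype (36.5% of all genes), 12 in knockout (18.8%) and 20 in the mean (47.1%), the 4 added in the mean being Aldoc, Pgk1, Ldhb and Pdk1. The wildtype count fell to 5, 5 and 7 when marrow wildtype replicate 1, 2 or 3 with Dox was left out, and to 6 and 7 without esophageal wildtype replicate 2 or 3. With median centring of the arrays it was 9, split as 4 higher and 5 lower, with the median of all genes in that comparison at 0.03 in place of 0.14.

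**Figure D2:**
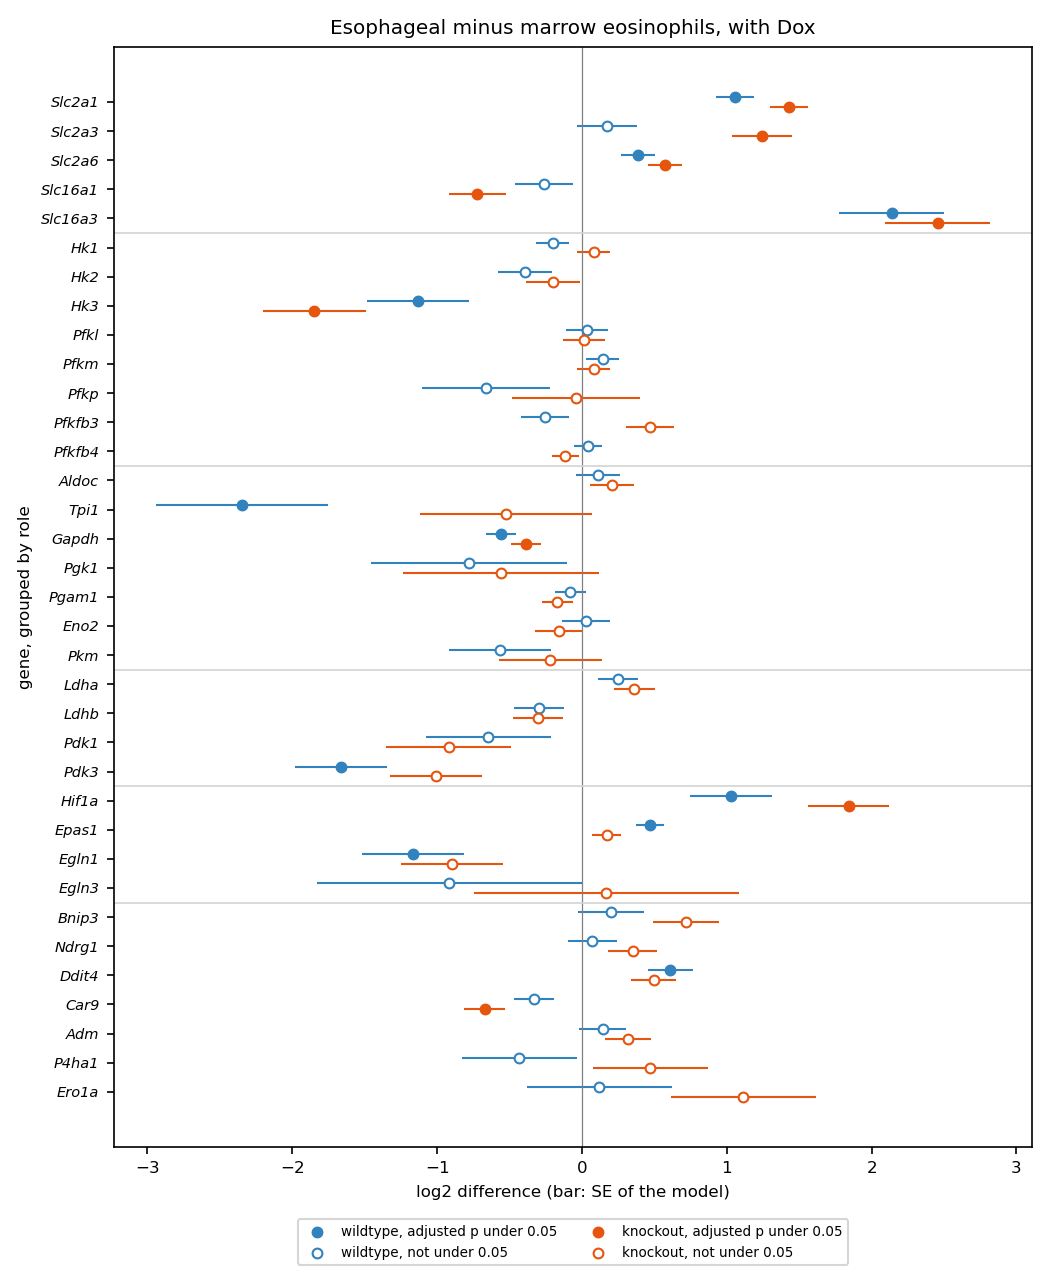
Log2 difference of esophageal minus marrow eosinophils with Dox for each of the 35 genes, in wildtype (blue) and knockout (orange), with bars of 1 SE of the model and filled points for an adjusted p under 0.05. Slc16a3, Slc2a1 and Hif1a lie to the right of 0 in both genotypes with filled points, and Hk3 and Gapdh lie to the left in both.

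Among the 5 transporters, 4 were higher in the esophagus (17.7% of all genes were) and 1 was lower (12.2% of all genes). Slc16a3 encodes MCT4, the exporter of lactate in glycolytic cells. Its wildtype values in the esophagus were 2.98, 0.87 and 2.47, and its knockout values there were 2.36, 2.23 and 2.13. In marrow with Dox the values were 0.15, -0.22 and -0.02 in wildtype, with -0.21, -0.18 and -0.26 in knockout, so no esophageal array overlapped with marrow. Slc16a3 was higher by 2.14 ± 0.36 in wildtype and by 2.46 ± 0.36 in knockout (adjusted p = 0.00265 and 7.62e-04), or 4.91-fold in the mean of both if the deposited logarithm is to base 2. It was the largest rise of the 35 genes. The wildtype call was lost, at an adjusted p of 0.0502, when only the groups compared were fitted.

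Slc2a1 encodes GLUT1, the basal glucose importer. Its esophageal values were 1.11, 0.55 and 1.14 in wildtype, with 1.42, 1.37 and 1.42 in knockout. Marrow with Dox gave -0.03, -0.31 and -0.02 in wildtype and -0.02, -0.06 and -0.01 in knockout. All esophageal arrays were thus above all marrow arrays, and the difference was 1.05 ± 0.13 in wildtype and 1.43 ± 0.13 in knockout (adjusted p = 3.01e-04 and 1.81e-05). The pair of Slc2a1 probe sets differed in size, with mean differences of 2.03 and 0.46, both past the threshold over all probe sets. Slc2a6, which encodes the lysosomal transporter GLUT6, was higher by a mean of 0.48 ± 0.08, and its wildtype call (0.39, adjusted p = 0.0460) was lost in 15 of 25 alternative settings, with an adjusted p of up to 0.274.

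Slc2a3 encodes GLUT3, a high-affinity glucose importer. In knockout its esophageal values were 1.43, 0.91 and 0.93, against 0.10, -0.19 and -0.37 in marrow. In wildtype the esophageal values were -0.16, 0.33 and -0.01 and the marrow values -0.08, -0.43 and 0.15. The tissues were apart in knockout, with a difference of 1.24 ± 0.21 (adjusted p = 0.00170), and overlapped in wildtype, where the difference was 0.17 ± 0.21 (adjusted p = 0.540). Slc16a1, which encodes the monocarboxylate transporter MCT1, was the transporter that was lower. Its esophageal values of -0.66, -0.63 and -0.38 in knockout lay below the marrow values of 0.31, 0.00318 and 0.18, a difference of -0.72 ± 0.20 (adjusted p = 0.0354), while in wildtype the arrays overlapped. The knockout call was lost in 8 of 25 settings, 5 of which left out a knockout array with Dox (adjusted p of up to 0.132). In the mean of the genotypes Slc16a1 lost its call with quantile normalization (adjusted p = 0.0623) and without knockout marrow replicate 1 with Dox (adjusted p = 0.0525).

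Of the 8 measured genes of the first steps, from hexokinase to phosphofructokinase and its regulators, only Hk3 passed the test in any tissue comparison. In the mean of the genotypes 12.2% of all genes were lower and 17.7% higher. Hk3 encodes the hexokinase of myeloid cells, which phosphorylates glucose. Its esophageal values were -0.66, -1.38 and -0.76 in wildtype, with -1.37, -1.54 and -1.93 in knockout, below all marrow values with Dox, which ran from 0.06 to 0.32. It was lower in both genotypes, by a difference of -1.13 ± 0.35 in wildtype and -1.85 ± 0.35 in knockout (adjusted p = 0.0474 and 0.00422). The wildtype call was lost in 15 of 25 settings, among them both other scalings (adjusted p of up to 0.161), and the knockout call was kept in all 25. Hk1 and Hk2, the other hexokinases, differed by -0.06 and -0.30 in the mean (adjusted p = 0.545 and 0.102).

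The phosphofructokinase subunit genes Pfkl, Pfkm and Pfkp had mean differences of 0.02, 0.11 and -0.35, none past the threshold. Pfkp, the platelet-type subunit, ranged from -1.64 to 0.02 among the wildtype esophageal arrays, wider than the tissue differences of this gene. Pfkfb3 encodes the enzyme that makes the main activator of phosphofructokinase. It stood at 0.28, 0.40 and 0.55 in the knockout esophagus, above its knockout marrow values of -0.06, -0.08 and -0.04, a difference of 0.47 ± 0.17 that did not pass (adjusted p = 0.0967). In wildtype the difference was -0.25 ± 0.17 and the arrays overlapped. Pfkfb4, of the same enzyme family, differed by -0.04 in the mean.

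In lower glycolysis, 2 of 7 measured genes were lower in the mean of the genotypes and none was higher, beside 12.2% and 17.7% of all genes. Tpi1 encodes triosephosphate isomerase, which interconverts the products of the split sugar. Wildtype esophageal arrays gave -1.57, -2.29 and -2.43, and wildtype marrow arrays with Dox gave 0.60, 0.12 and 0.03. In knockout the esophageal values were 0.04, -0.25 and -1.01, which overlapped with marrow values of 0.07, 0.31 and -0.03. Tpi1 was thus lower in wildtype, with a difference of -2.35 ± 0.60 (adjusted p = 0.0219), while the knockout difference was -0.52 ± 0.60 (adjusted p = 0.659). The wildtype call was lost without wildtype marrow replicate 1 or 2 with Dox or esophageal replicate 2 or 3 (adjusted p = 0.0533 to 0.0819). The mean of the genotypes, -1.44, lost its call without wildtype marrow replicate 1 with Dox (adjusted p = 0.0546) and without knockout esophageal replicate 3 (adjusted p = 0.0579).

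Gapdh encodes the dehydrogenase that follows, and is often used as a reference gene. Its esophageal values were -0.65, -0.43 and -0.19 in wildtype, with -0.42, -0.34 and -0.38 in knockout. Marrow values with Dox ran from -0.04 to 0.17, above all of these. Gapdh was lower, with differences of -0.56 ± 0.10 in wildtype and -0.39 ± 0.10 in knockout (adjusted p = 0.00397 and 0.0269). The knockout call was lost when any 1 of the 6 knockout arrays with Dox was left out (adjusted p = 0.0572 to 0.0948). It was also lost with a replicate block within genotype. Its 3 probe sets were all lower in the mean, at -0.45, -0.44 and -0.53. Near-identical Gapdh pseudogenes exist in the mouse genome, and whether these probes also read them was not tested.

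Pgk1 encodes phosphoglycerate kinase, the first step of the pathway that yields ATP. Its values in the esophagus were -0.86, -0.55 and -0.58 in wildtype, with -0.42, -0.24 and -0.64 in knockout, below all 6 marrow values with Dox, which ran from 0.04 to 0.28. The mean difference of -0.67 did not pass (adjusted p = 0.282). The outlying marrow array stood at -3.49, and without it the adjusted p was 7.79e-05. Pkm, the pyruvate kinase gene, differed by -0.57 ± 0.35 in wildtype and -0.22 ± 0.35 in knockout and did not pass. Aldoc, Pgam1 and Eno2 had mean differences of 0.16, -0.12 and -0.06. The probe sets of Pgam1 disagreed in sign, at 0.18 and -0.43, and only the second passed in limma over all probe sets (adjusted p = 0.00527).

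Of the 4 genes that direct pyruvate, Ldha was higher and Pdk3 lower, beside 17.7% and 12.2% of all genes. Ldha encodes the muscle-type subunit of lactate dehydrogenase. Its esophageal values of 0.01, 0.10 and 0.21 in wildtype and 0.18, 0.40 and 0.08 in knockout lay above all marrow values with Dox, which ran from -0.23 to -0.01. The mean difference was small, 0.31 ± 0.10 (adjusted p = 0.0341), and the call was lost in 11 of 25 settings, both other scalings among them (adjusted p = 0.107 and 0.118). Ldhb, the heart-type subunit, differed by -0.30 ± 0.12 (adjusted p = 0.0750).

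Pdk3 encodes a kinase that shuts pyruvate dehydrogenase and so holds pyruvate back from oxidation in the mitochondria. Wildtype esophageal arrays gave -1.46, -0.84 and -1.64 and knockout arrays -0.69, -0.21 and -0.48. Marrow with Dox gave 0.32, 0.53 and 0.19 in wildtype and 1.08, 0.28 and 0.28 in knockout, with no overlap. Pdk3 was lower in wildtype, with a difference of -1.66 ± 0.32 (adjusted p = 0.00530), and differed by -1.01 ± 0.32 in knockout (adjusted p = 0.0628). Pdk1, a kinase of the same family and a HIF target, ranged from -1.14 to 0.98 among the wildtype esophageal arrays. Its mean difference of -0.78 ± 0.31 did not pass (adjusted p = 0.0684). Of its pair of probe sets, 17371847 passed in limma over all probe sets (-0.38, adjusted p = 0.0435). The other did not (-1.19, adjusted p = 0.144).

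Among the 4 oxygen-sensing genes, both HIF alpha subunits were higher and Egln1 was lower, beside 17.7% and 12.2% of all genes. Hif1a stood at 1.23, 1.06 and 0.33 in the wildtype esophagus and at 1.95, 1.82 and 1.75 in the knockout esophagus. Marrow with Dox gave values from -0.21 to 0.04, below all of these. Hif1a was higher by 1.03 ± 0.28 in wildtype and by 1.84 ± 0.28 in knockout (adjusted p = 0.0300 and 9.58e-04), a mean of 2.70-fold on a base-2 logarithm. The wildtype call was lost in 7 of 25 settings, 5 of which left out a wildtype array with Dox (adjusted p of up to 0.140). Both Hif1a probe sets were higher in the mean, by 1.48 and 1.39. Within each genotype only the second passed in limma over all probe sets. The first did not (adjusted p = 0.152 in wildtype and 0.0656 in knockout). These are transcript values and say nothing of the HIF protein, which is governed mainly by its breakdown.

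Epas1 encodes HIF-2 alpha. The wildtype esophageal arrays stood at 0.37, 0.39 and 0.28, above the marrow values of -0.13, -0.17 and -0.07, by 0.47 ± 0.10 (adjusted p = 0.00832, and 0.0797 with quantile normalization). In knockout the esophageal values were 0.03, -0.10 and 0.04, above the marrow values of -0.12, -0.12 and -0.29, and the difference of 0.17 ± 0.10 did not pass (adjusted p = 0.334). Egln1 encodes PHD2, the main oxygen sensor that marks HIF for breakdown. Its esophageal values were -0.80, -0.42 and -1.28 in wildtype, with -0.68, 0.15 and -0.66 in knockout, against marrow values of 0.75, 0.42 and -0.18 and of 0.07, 0.62 and 0.81. It was lower, with differences of -1.17 ± 0.35 in wildtype and -1.03 ± 0.25 in the mean (adjusted p = 0.0422 and 0.00884), with 1 knockout esophageal array inside the marrow range. The wildtype call was lost in 12 of 25 settings (adjusted p of up to 0.152). Egln3, which encodes PHD3 and is itself HIF-induced, gave 2.79, -1.47 and -1.64 in the wildtype esophagus, so that 1 array stood far above and the others far below the median, and nothing could be called.

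Of the 7 other hypoxia response genes that were measured, Bnip3 and Ddit4 were higher and Car9 was lower, beside 17.7% and 12.2% of all genes. Ddit4 encodes REDD1, an inhibitor of the growth kinase mTOR. It stood at 0.45, 0.72 and 0.48 in the wildtype esophagus and at 0.80, 0.30 and 0.32 in the knockout esophagus, above the marrow values with Dox, which ran from -0.10 to just under 0. Ddit4 was higher by 0.61 ± 0.15 in wildtype (adjusted p = 0.0210, and 0.0554 to 0.0785 without wildtype marrow replicate 1, 2 or 3 with Dox or esophageal replicate 2) and differed by 0.49 ± 0.15 in knockout (adjusted p = 0.0590). Bnip3, a mediator of mitophagy, was higher by a mean of 0.46 ± 0.16 (adjusted p = 0.0462) and lost the call in 14 of 25 settings (adjusted p of up to 0.113). Its values in the esophagus were 0.55, -0.23 and -0.02 in wildtype, with 0.89, 0.13 and 0.83 in knockout, and the former overlapped with marrow.

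Car9 encodes carbonic anhydrase IX, a surface enzyme that is among the most HIF-dependent genes known. It went the opposite way to Hif1a. Esophageal values were -0.32, -0.16 and -0.05 in wildtype, with -0.15, -0.30 and -0.29 in knockout, against marrow values of -0.05, 0.16 and 0.35 and of 0.29, 0.43 and 0.56. No array overlapped, though the nearest wildtype arrays of the tissues both round to -0.05. Car9 was lower, with differences of -0.67 ± 0.14 in knockout and -0.50 ± 0.10 in the mean (adjusted p = 0.00715 and 0.00264), and the pair of probe sets gave -0.20 and -0.80, of which only the second passed. The vasodilator peptide gene Adm differed by 0.23 ± 0.11 and the stress gene Ndrg1 by 0.21 ± 0.12, and neither passed (adjusted p = 0.132 and 0.182). Of the pair of Ndrg1 probe sets, 17317652 passed in limma over all probe sets (0.23, adjusted p = 0.0126). The other did not (0.19, adjusted p = 0.509). P4ha1, a collagen prolyl hydroxylase, and Ero1a, an oxidase of the endoplasmic reticulum, differed in the mean by 0.02 and 0.62 and are taken up with the genotypes.

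**Figure D3:**
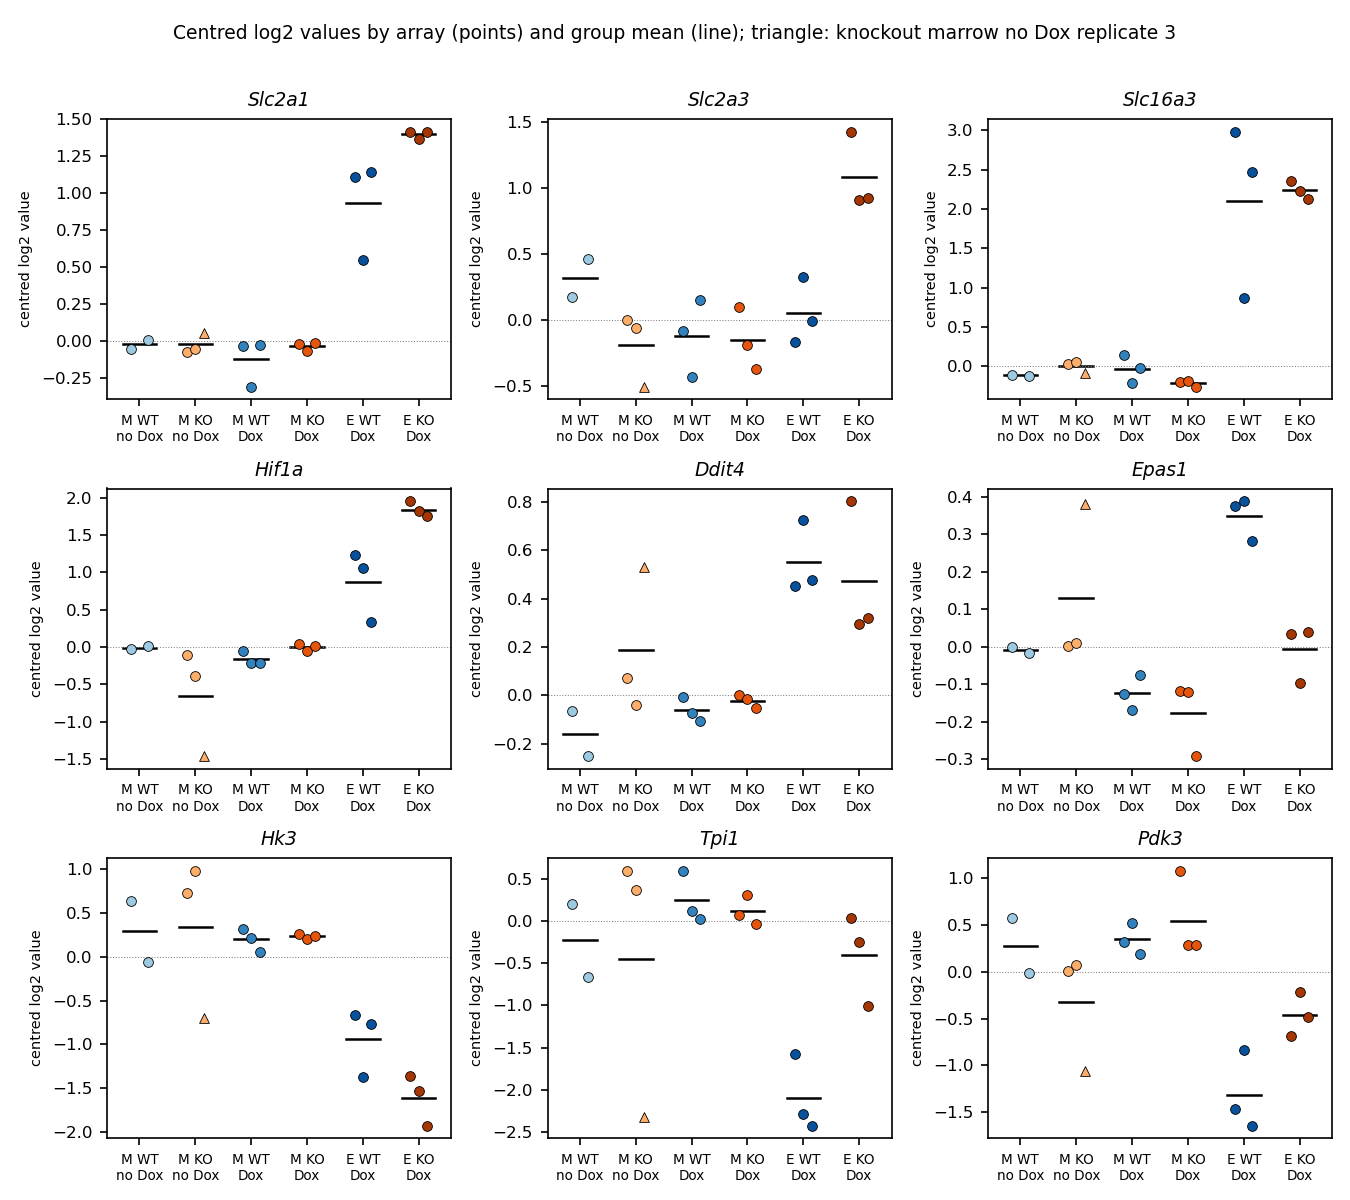
Centred log2 values of 9 genes by group, 1 point per array (triangle: knockout marrow without Dox replicate 3) with a line at the group mean; M is marrow, E esophagus, WT wildtype and KO knockout, and the vertical scale differs between panels. Slc2a1, Slc16a3 and Hif1a are high on all esophageal arrays, Slc2a3 is high in the knockout esophagus, and Tpi1 is lowest in the wildtype esophagus.

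In the wider pathway lists, too, the tissue comparison called genes in both directions, beside 17.7% of all genes higher, 12.2% lower and a median of 0.10. Of 33 measured other hypoxia targets, 10 were higher in the esophagus and 5 lower in the mean of the genotypes, with a median of 0.13. The counts were 15 higher and 8 lower without the outlying array, where 47.1% of all genes passed. Bhlhe40, a transcriptional repressor induced by hypoxia, was higher by 2.33 ± 0.17 (adjusted p = 1.16e-06), and Ccng2, a cyclin of arrested cells, by 1.99 ± 0.22. Hmox1, the heme oxygenase gene, was lower, at -2.18 ± 0.17 (adjusted p = 1.60e-06). Vegfa, the endothelial growth factor gene, was higher by 1.83 ± 0.25 in knockout (adjusted p = 3.84e-04).

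Among 18 other regulators of HIF, 1 was higher (17.7% of all genes were) and 4 were lower (12.2%), with a median of -0.01. Without the outlying array, where 47.1% of all genes passed, 3 were higher and 5 lower. Cul2, a scaffold of the ligase that degrades HIF, was lower, at -1.18 ± 0.22 (adjusted p = 0.00170), as were Myc, a transcription factor, at -0.69 ± 0.14 (adjusted p = 0.00314) and Os9 at -1.42 ± 0.36 (adjusted p = 0.0113). Of 36 other genes of glycolysis and pyruvate use, 5 were higher and 4 lower, with a median of 0.12, so that neither share exceeded that of all genes. The counts were 13 higher and 7 lower without the outlying array. Dlat, a subunit of pyruvate dehydrogenase, was lower, at -0.45 ± 0.06 (adjusted p = 1.94e-04), as was Fbp1, which reverses the phosphofructokinase step, at -0.77 ± 0.15, while the transporter gene Slc16a6 was higher by 0.95 ± 0.16.

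The pentose phosphate pathway leaves glycolysis at its first step and makes NADPH and ribose. It had 4 of 8 measured genes lower (12.2% of all genes were) and none higher (17.7%). The median was -1.36, beside 0.10 for all genes. Among the lower genes Prps2 stood at -2.10 ± 0.30, Rpe at -1.79 ± 0.25 and Pgd at -1.70 ± 0.28 (adjusted p = 2.66e-04, 2.53e-04 and 6.93e-04). Pgd, a producer of NADPH, was lower in wildtype, at -2.52 (adjusted p = 0.00143), and differed by -0.88 in knockout (adjusted p = 0.198). In this list 1 gene was higher and 5 were lower without the outlying array, where 47.1% of all genes passed.

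Markers of other cells moved with the tissue, in a comparison in which 17.7% of all genes were higher and 12.2% lower. In the mean of the genotypes 12 of 15 neutrophil markers were lower in the esophagus and 2 were higher, with a median of -2.77. The mean over the list ran from -0.06 to 0.32 on the marrow arrays with Dox and from -3.12 to -2.25 on the esophageal arrays. The azurophil granule genes Ctsg, Mpo and Elane were among them, at -5.53, -5.48 and -4.26. Of 14 monocyte and macrophage markers 9 were lower and 1 higher. Their list mean ran from 0.27 to 0.65 in marrow with Dox and from -0.70 to -0.34 in the esophagus. In marrow without Dox it ran from -0.24 to -0.11 in wildtype and from -0.96 to 0.21 in knockout. Mast cell and basophil markers were lower for 4 of 9 genes and higher for none, and their list mean ran from 0.12 to 0.35 in marrow with Dox and from -1.11 to -0.94 in the esophagus. Fibroblast markers were higher for 7 of 9 genes, from a list mean of -0.14 to -0.07 in marrow with Dox up to 0.21 to 0.57 in the esophagus. Striated muscle markers were higher for 4 of 9 genes and squamous epithelial markers for 6 of 12, with 1 lower. Without the outlying array, where 47.1% of all genes passed, 9 fibroblast, 6 striated muscle and 8 squamous epithelial markers were higher. There 2 mast cell and basophil markers were higher beside the 4 lower, and the neutrophil and monocyte counts stood as given. Of the endothelial, T cell, B cell and erythroid lists, with 8, 6, 6 and 4 measured genes, 1 endothelial and 1 T cell marker were higher and 1 B cell marker was lower.

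Among 12 measured eosinophil markers 6 were higher and 4 lower, with a median of 0.49 beside 0.10 for all genes. Siglecf was among the higher ones, at 0.73, and the granule genes Prg3, Epx and Prg2 were lower, at -5.07, -3.50 and -2.86. Centred values do not show which markers lie at background. Fewer cells of a type and less RNA per cell cannot be told apart here, and the part of other cells in the tissue differences of Hk3, Tpi1, Slc2a1 and the other genes was not tested.

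**Figure D4:**
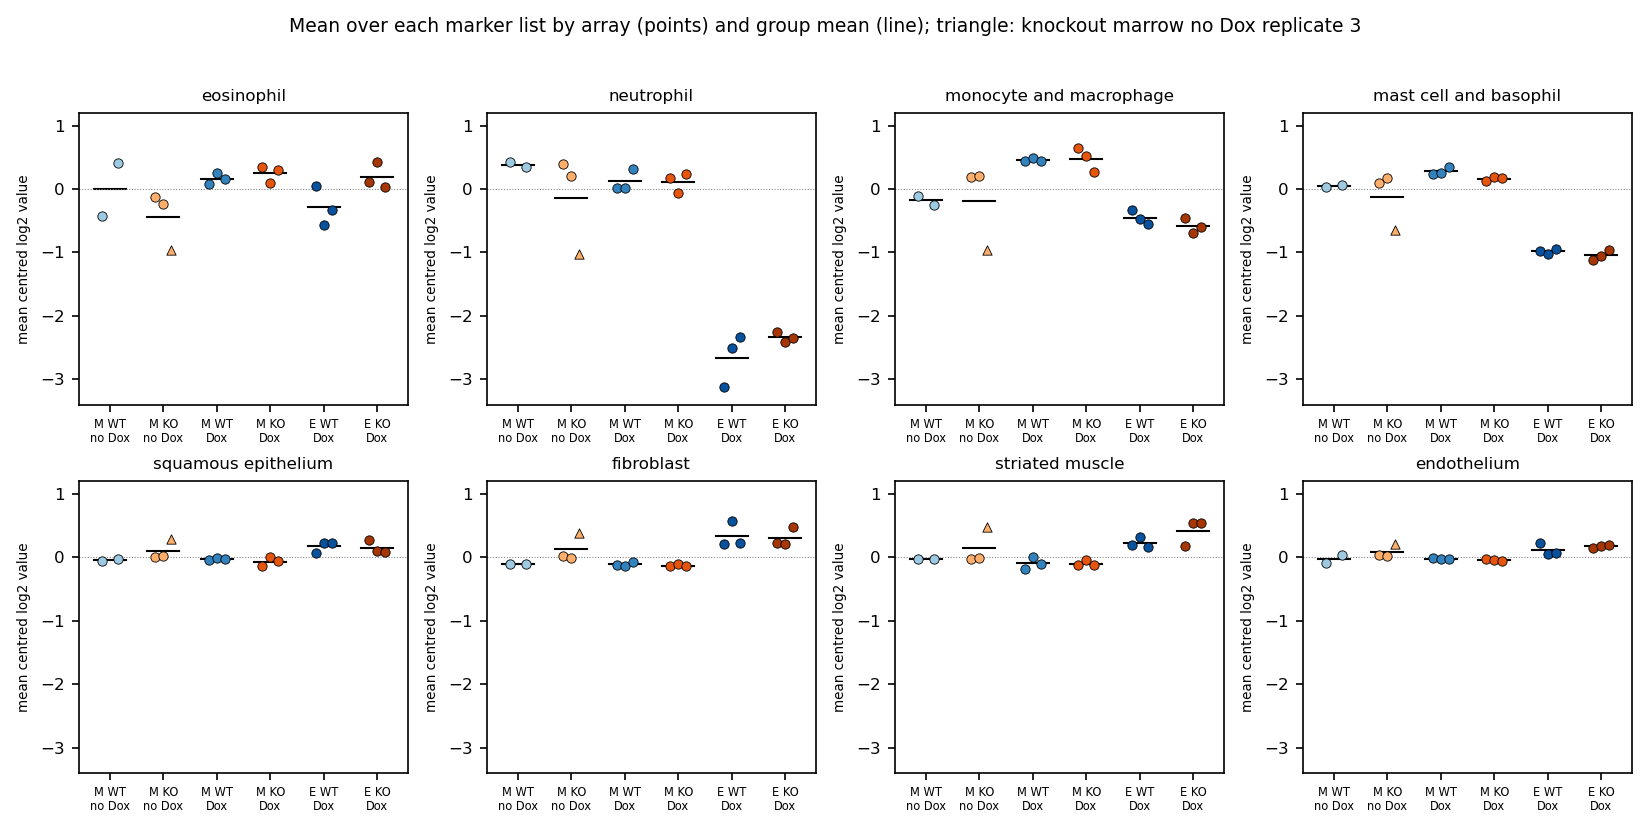
Mean centred log2 value over each marker list, 1 point per array (triangle: knockout marrow without Dox replicate 3) and a line at the group mean; M is marrow, E esophagus, WT wildtype and KO knockout. The neutrophil list lies between -3.12 and -2.25 on the esophageal arrays and the fibroblast list lies above 0 on all 6 of them.

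The second comparison asks whether loss of Pirb went with other levels of these genes in the IL-13-exposed esophagus. No gene of the 35 passed limma's test, beside 0.347% of all genes. At an unadjusted p of 0.05 there were 12, beside 14.7% of all genes. The difference was positive for 24 genes and negative for 11, with a median of 0.11 against -0.10 for all genes. Without the outlying marrow array 4 genes passed, beside 3.44% of all genes: Slc2a3, Tpi1 and Hif1a, higher in knockout (1.75% of all genes were), and Epas1, lower (1.69%). The same 4 passed when arrays were weighted by quality, where the weight of that array was 0.0754. Weighting also gave wildtype esophageal replicates 1 and 2 weights of 0.351 and 0.376, beside 1.15 for replicate 3. The sizes of the differences therefore changed as well, which leaving out the marrow array does not do. The array left out belongs to neither group and enters only through the shared spread. That spread pools both tissues: the SD of deviations from the group mean was 0.178 to 0.315 on esophageal arrays. On marrow arrays with Dox it was 0.146 to 0.179.

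Slc2a3, the GLUT3 gene, had the smallest p. Its knockout values in the esophagus, 1.43, 0.91 and 0.93, lay above the wildtype values of -0.16, 0.33 and -0.01. The difference was 1.04 ± 0.21 (adjusted p = 0.0563, and 0.0191 without the outlying array). It was also past the threshold with median centring (adjusted p = 0.0475), and far from it with quantile normalization (0.81, adjusted p = 0.832). Slc2a1, the GLUT1 gene, gave 0.46 ± 0.13 (adjusted p = 0.178), with 0.95 for the first of its probe sets and -0.02 for the other.

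Hif1a was at 1.95, 1.82 and 1.75 in knockout and at 1.23, 1.06 and 0.33 in wildtype, with no overlap and a difference of 0.97 ± 0.28 (adjusted p = 0.185, and 0.0186 without the outlying array). Probe set 17281911 alone gave 1.10 with an adjusted p of 0.0209 over all probe sets, and the other gave 0.85 (adjusted p = 0.465). Epas1 went the other way, with knockout values of 0.03, -0.10 and 0.04 below wildtype values of 0.37, 0.39 and 0.28, by -0.36 ± 0.10 (adjusted p = 0.168, and 0.0183 without the outlying array). Tpi1 stood at 0.04, -0.25 and -1.01 in knockout and lower, at -1.57, -2.29 and -2.43, in wildtype, a difference of 1.69 ± 0.60 (adjusted p = 0.253, and 0.0183 without the outlying array).

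P4ha1 gave 1.05, 0.82 and 1.65 in knockout and 0.68, -0.83 and -0.58 in wildtype, a difference of 1.42 ± 0.40 (adjusted p = 0.174). It passed only when wildtype esophageal replicate 1 was left out (1.88, adjusted p = 0.0214). Ero1a gave 0.97, 1.11 and 0.94 in knockout against 0.65, -0.96 and -0.59, by 1.30 ± 0.50 (adjusted p = 0.279). In both, the wildtype replicate 1 stood nearest to the knockout arrays. Slc16a3, Gapdh, Ldha and Adm, by contrast, differed by 0.13, 0.04, 0.11 and 0.03 between the genotypes. Groups of arrays did not overlap for 11 of the 35 genes (31.4%), beside 23.3% of all genes. The eosinophil gate gene Siglecf was higher in knockout by 0.95 ± 0.16 (adjusted p = 0.0259), the only marker of any list that passed with all arrays. Without the outlying array, where the 4 genes passed, 3 of 14 monocyte and macrophage markers were also lower in knockout (1.69% of all genes were). These were C1qb, Mrc1 and Lyz2 (-0.61, -1.07 and -0.33). Of 15 neutrophil markers 1 was lower (Elane, -0.54), as was 1 of 9 fibroblast markers (Pdgfra, -0.38). Of 9 striated muscle markers 1 was higher (Tnni2, 1.27), beside 1.75% of all genes. In that order the list medians were -0.14, 0.14, 0.00406 and -0.10, beside -0.10 for all genes. The part of other cells in these differences was not tested.

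None of the genes in the wider pathway lists passed between genotypes in the esophagus with all arrays. Hmox1 differed by -1.20 ± 0.24 (adjusted p = 0.0511), Pgd by 1.62 ± 0.39 (adjusted p = 0.115), Vegfa by 0.97 ± 0.25 (adjusted p = 0.137) and Arnt, the partner subunit of HIF alpha, by 0.77 ± 0.24 (adjusted p = 0.204). Without the outlying array Hmox1 was lower in knockout (adjusted p = 0.00995), and Pgd (adjusted p = 0.0348) and Slc16a7, a monocarboxylate transporter gene (0.65, adjusted p = 0.0442), were higher.

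**Figure D5:**
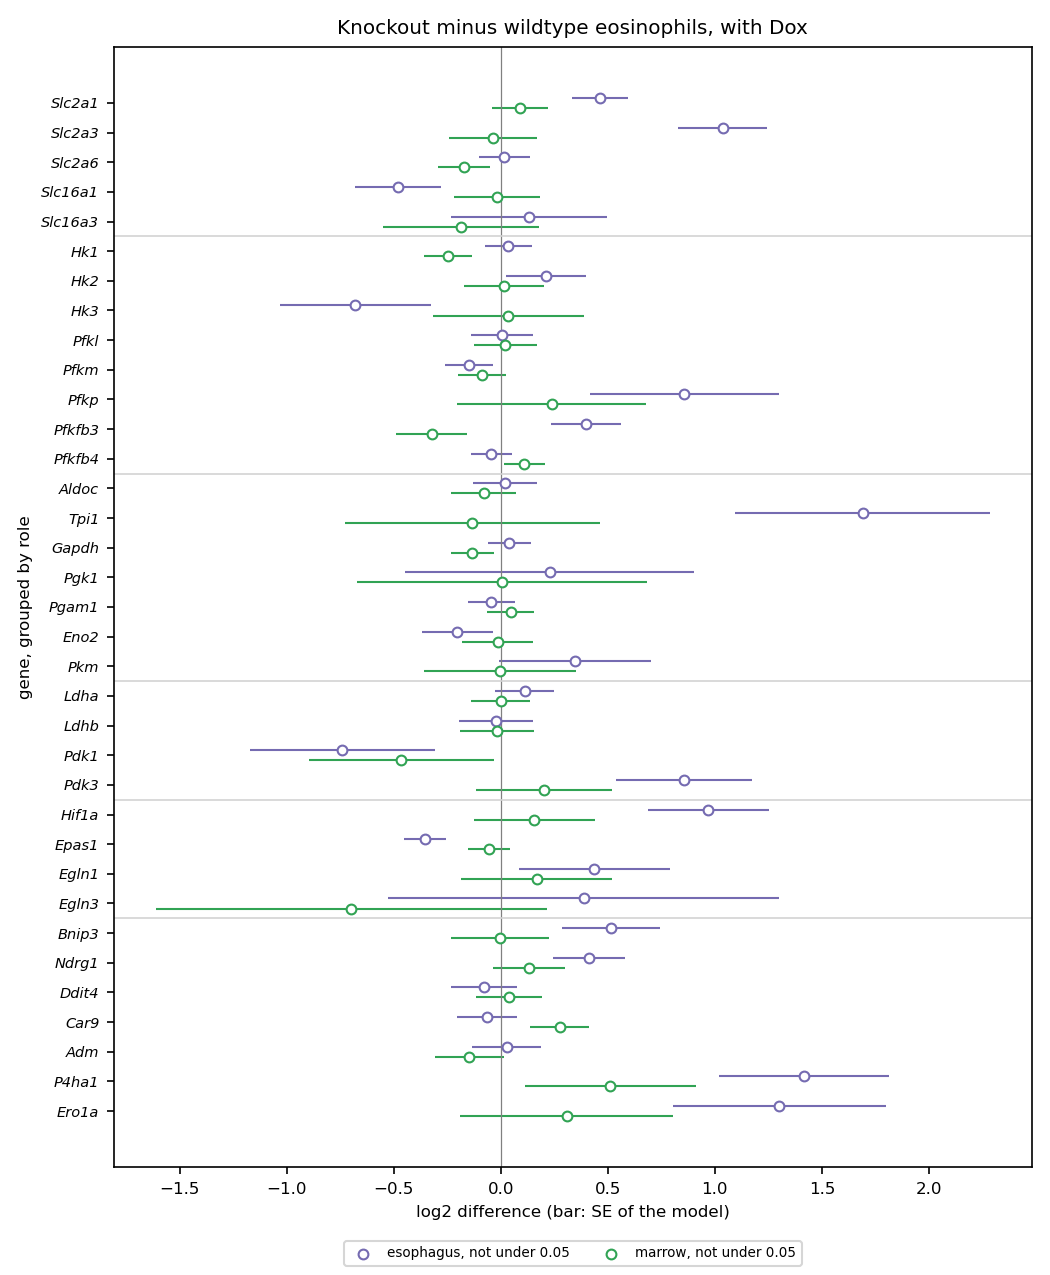
Log2 difference of knockout minus wildtype eosinophils with Dox for each of the 35 genes, in the esophagus (purple) and in marrow (green), with bars of 1 SE of the model. No point passed an adjusted p of 0.05, and Tpi1, P4ha1, Ero1a, Slc2a3 and Hif1a lie farthest to the right in the esophagus while their marrow differences lie nearer to 0.

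In marrow no gene passed between the genotypes. With Dox none of the 35 genes passed, as none of all 22180 genes did (0%), and 1 gene, Hk1, was under an unadjusted p of 0.05, beside 1.83% of all genes. Hk1 differed by -0.25 ± 0.11, Car9 by 0.27 ± 0.14 and Pfkfb3 by -0.32 ± 0.17 (adjusted p of 1 for each). Hif1a and Slc2a3 differed by 0.16 and -0.04. Without Dox, again none passed (0% of all genes), and 2 were under an unadjusted p of 0.05, beside 8.16% of all genes. Pfkfb3 differed by -0.57 ± 0.19, Slc2a3 by -0.51 ± 0.23 and Hif1a by -0.64 ± 0.32 (adjusted p = 0.546 for each). Without the outlying array, which belongs to this knockout group, these differences were -0.53, -0.35 and -0.24.

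Whether the genotype difference itself differed between esophagus and marrow was tested as an interaction. None of the 35 genes passed it, beside 0.00451% of all genes, and 4 were under an unadjusted p of 0.05, beside 4.95%. Slc2a3 had the smallest p, with an interaction of 1.07 ± 0.29 (adjusted p = 0.598, and 0.268 without the outlying array). Pfkfb3 followed with 0.72 ± 0.23 (adjusted p = 0.799), Epas1 with -0.30 ± 0.14 and Tpi1 with 1.82 ± 0.84 (adjusted p = 0.962 for both). The median interaction was 0.19, and -0.07 for all genes. A gene that passed in 1 genotype alone is therefore not shown to differ between genotypes.

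The last comparison asks what Dox did in marrow, away from the esophagus. In wildtype none of the 35 genes passed and none was under an unadjusted p of 0.05, beside 0.0225% and 4.31% of all genes. Slc2a3 differed by -0.44 ± 0.23, Slc16a1 by 0.28 ± 0.22 and Hk1 by 0.21 ± 0.12 (adjusted p of 1 for each). In knockout none passed (0.0225% of all genes), while 9 were under an unadjusted p of 0.05, beside 27.3% of all genes. P4ha1 differed by 1.33 ± 0.40, from values of -0.58, -0.18 and -1.13 without Dox to 1.05, 0.27 and 0.79 with it (adjusted p = 0.146). Epas1 and Slc2a6 differed by -0.31 ± 0.10 and -0.37 ± 0.12 (adjusted p = 0.146 and 0.148). Leaving out the outlying array turned these into 1.08, -0.18 and -0.30.

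Averaged over the genotypes, the Dox differences of P4ha1, Epas1 and Hk1 were 0.76, -0.21 and 0.18, and none of the 35 genes passed (0.234% of all genes did, and 2 genes against 17.4% were under an unadjusted p of 0.05). The interaction of genotype and Dox was passed by none (0% of all genes), with 1 gene under an unadjusted p of 0.05, beside 6.27%. Slc2a6 had the smallest p there (-0.42 ± 0.18), followed by P4ha1 (1.14 ± 0.60) and Hif1a (0.80 ± 0.42), each at an adjusted p of 0.663. The genes that stood out in the esophagus, Slc16a3, Slc2a1 and Hif1a, ranged on the 10 marrow arrays other than the outlying one from -0.26 to 0.15, from -0.31 to 0.01 and from -0.39 to 0.04.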

How the data were processed

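The authors deposited 1 table of centred log2 values for 33793 probe sets on 17 Affymetrix arrays, made with Affymetrix Expression Console per the submitters' processing notes, and the base of the logarithm and the centring were read from the values. For 97.08% of probe sets a pair of arrays next to each other in rank had equal and opposite values within 2e-05. The deposited values give no brightness, so no background filter could be set, and precision is limited by the number of arrays. Per the labels' protocols, the submitters removed 1 array of wildtype marrow without Dox because its signal was low. Of the probe sets, 23521 named 1 gene, 1814 several and 8458 none. Among those that named 1 gene, 23328 had an Entrez ID in the RefSeq gene reference, whose symbol was used. How many names this changed was not counted. Probe sets of a gene were averaged (1082 genes had more than 1).

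All 17 arrays were fitted together in limma 3.58.1 (R 4.3.3) as 6 group means with empirical Bayes moderation, and 11 contrasts were taken. P-values are two-sided and Benjamini-Hochberg adjusted over 22180 genes, with a threshold of 0.05, and the code was tested on simulated data. Genes were named if past the threshold in any contrast, among the 3 smallest p-values or the 8 largest mean tissue differences, or on a set list (Slc2a1, Slc2a3, Hk2, Hk3, Pfkfb3, Pfkfb4, Pkm, Ldha, Hif1a, Epas1, Egln1, Egln3, Bnip3, Ndrg1, Ddit4 and Adm). The members, the lists and the tests were chosen with earlier results of these data known. Comparisons share arrays: the tissue and genotype contrasts use the same groups with Dox. Alternatives were quantile normalization, median centring, array weights, a robust fit, only the groups compared and the lowest-numbered probe set of each gene. Others were a replicate block over all arrays, a replicate block within genotype on the arrays with Dox (tissue comparisons only) and leaving out each array. Promoter windows are RefSeq's on GRCm38.p6.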

Additional observations from a re-analysis of the deposited data

How the results depend on the processing

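The tissue count over both genotypes, 16 genes, ran from 13 with quantile normalization to 22 with array weights, and Slc2a1, Slc2a3, Slc2a6, Slc16a3, Hk3, Gapdh, Pdk3, Hif1a, Epas1, Egln1 and Ddit4 kept their call in all 25 alternative settings. Ldha lost it in 11 and Bnip3 in 14, and Car9 lost it with the lowest-numbered probe set (adjusted p = 0.0730). No result changed direction past the threshold. The wildtype tissue count of 11 was 7 with quantile normalization. The knockout tissue count of 9 was 14 with only the groups compared and 17 with array weights. The genotype count in the esophagus, 0, was 1 with median centring (Slc2a3) and 4 with array weights. The count for Dox in knockout marrow, 0, was 5 with array weights (P4ha1, Epas1, Hk3, Pfkfb3 and Car9), which gave knockout marrow replicate 3 without Dox a weight of 0.0754. Replicate 2 of that group had a weight of 4.32. Leaving out each array in turn gave 5 to 13 genes for the wildtype tissue comparison, 7 to 12 for knockout, 13 to 20 for their mean, 0 to 4 for genotype in the esophagus (4 without knockout marrow replicate 3 without Dox and 1 without wildtype esophageal replicate 1) and 0 in the 7 other comparisons. Same-numbered arrays did not deviate together in every pair (correlations of -0.0815 to 0.200), so the numbers were not taken to pair samples. With the replicate block over all arrays the tissue counts were 10 in wildtype, 10 in knockout and 16 in the mean, with 0 in all other comparisons. The block within genotype cost Slc16a1 and Gapdh their knockout tissue calls. The planned filter on dim probes was not run, because centred values carry no brightness. The cause of these shifts was not tested.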
